A study of Mus musculus with 29 samples.

Results

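The comparison is between lungs of Klf15-knockout mice taken 4 h after the synthetic glucocorticoid dexamethasone (2.5 mg/kg) and lungs of Klf15-knockout mice taken 4 h after saline. All arrays that the labels place in these groups were used, 4 with dexamethasone and 3 with saline, which is 7 of the 29 arrays of the series. Every mouse of both groups was C57BL/6, 6 to 8 weeks old and without Klf15, so the difference described is that of the drug in the absence of this factor. The labels call the samples biological replicates. The p-values measure the spread between samples within groups, estimated over all 29 arrays in 8 groups, of which these 7 arrays are a part. The knockout allele, the sex of the animals, the route of injection and any pooling were not given in the sources used here. The title of the series asks how the glucocorticoid receptor and Klf15 act together in feed-forward circuits, and the knockout shows which parts of the early response are present without Klf15. Wild-type lung at 4 h (4 arrays with dexamethasone, 4 with saline) and knockout lung at 8 h (4 and 4) were compared to show where the response differs. These arrays, like the rest of the series, also entered the fit and the choice of probes.

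Dexamethasone binds the glucocorticoid receptor, a transcription factor held in the cytoplasm by heat shock proteins and cochaperones. The bound receptor enters the nucleus, raises genes next to its palindromic response elements and lowers many inflammatory genes, in part through NF-kB and AP-1. Klf15 is itself an early target of the receptor in airway and lung and takes part in amino acid breakdown.

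Levels are the log2 of the background-subtracted spot intensity minus the 75th percentile of its array, so a negative level lies below that percentile and a difference of 1 is a 2-fold change. A gene is represented by its brightest probe, and levels of different probes are not compared. Klf15 itself lay between -0.88 and -0.27 on the knockout saline arrays and between 1.07 and 1.37 on the knockout dexamethasone arrays. In wild type at 4 h the same probe lay between 1.95 and 2.57 with saline and between 4.11 and 4.29 with dexamethasone, so every knockout array was below every wild-type array. The second Klf15 probe had the same order, with -3.52 to -3.15 and -2.55 to -1.96 in the knockout against -1.02 to -0.54 and 0.92 to 1.32 in wild type. Whether either probe lies in the deleted stretch was not given in the sources used here, so the remaining signal and its rise after dexamethasone are reported as signal only. The lung markers Sftpc, a surfactant protein of alveolar type 2 cells, and Ager, a receptor of type 1 cells, were bright on all arrays that measured them, at 7.21 to 7.98 and 4.51 to 5.18.

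The saline and dexamethasone arrays also differed in brightness. The 75th percentile of the intensity was 3033 ± 224 (SD, n = 3) with saline and 2091 ± 253 (SD, n = 4) with dexamethasone, and 82.4% to 87.2% against 77.2% to 83.3% of probes were well above background. For 2546 genes whose brightest and dimmest probes lay over 2 log2 units apart, the log2 bright-to-dim ratio, averaged over genes and relative to the mean of the 29 arrays, was -0.37 to -0.22 with saline and -0.05 to 0.16 with dexamethasone, with no overlap. Correlations between arrays were 0.979 to 0.99 within saline, 0.973 to 0.991 within dexamethasone and 0.958 to 0.975 between the groups. The 29 arrays lie on 8 slides, and slide 4 is the only slide with an array of each group.

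After dexamethasone 3662 of 15345 genes were higher (23.9%) and 2843 were lower (18.5%) at an adjusted p under 0.05. Changes of at least 2-fold were fewer, with 464 genes higher (3.02%) and 597 lower (3.89%). The lowest dexamethasone value lay above the highest saline value in 3823 genes (24.9%), and the reverse held in 3145 genes (20.5%). Probes of the same gene separated large from small changes. Among the called genes with several probes, the dimmest probe had the same sign as the brightest in 96.2% of 156 rises of at least 2-fold and in 97.1% of 137 such falls. For falls under 2-fold it had the same sign in 88.8% of 816 genes, and for rises under 2-fold in 56.1% of 1530. Taking the dimmest probe in place of the brightest turned the share of rises among called genes from 56.3% to 43.1%. Small rises therefore depend on the probe. The bright-to-dim ratio differs between these knockout groups, and its part in the small rises was not tested. In wild type at 4 h the ratio overlapped between the treatments, at -0.01 to 0.17 with saline and 0.01 to 0.13 with dexamethasone. Every probe was called higher in 439 of 5417 genes with several probes (8.1%), and every probe lower in 541 (9.99%). On slide 4, in genes called without its dexamethasone array, the dexamethasone array differed from the saline array in the called direction in 98.4% of 6244 genes and in 99.3% of 1106 genes changed at least 2-fold. The calls still used the saline array of slide 4, which favours the same direction, so these shares are no independent check.

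**Figure D1:**
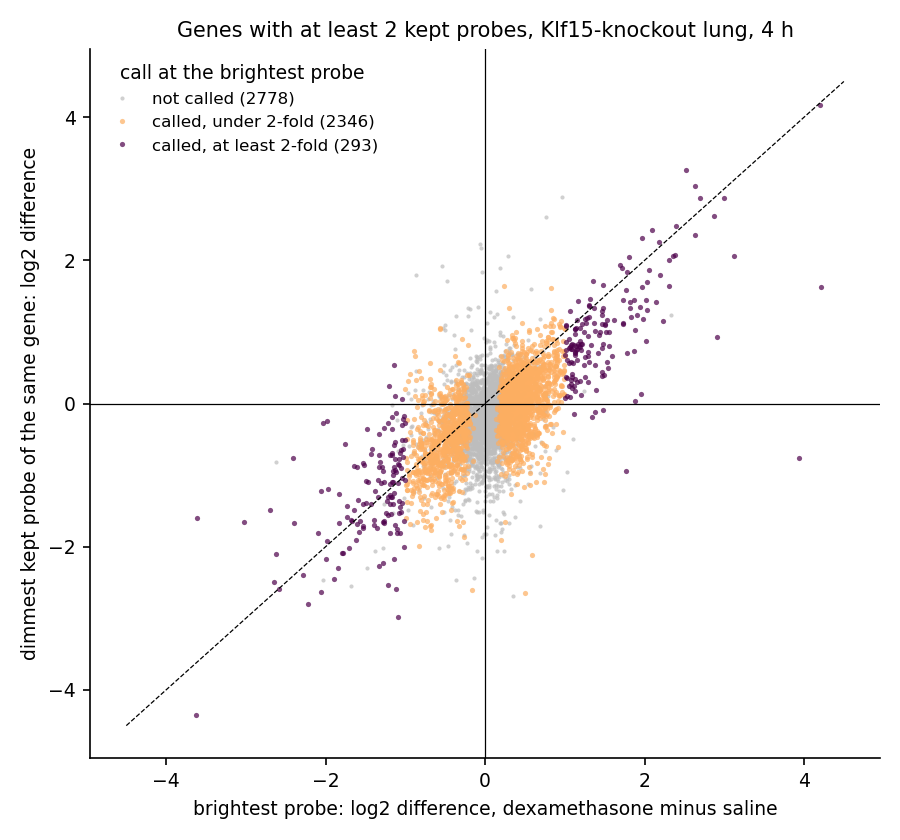
Each point is 1 of 5417 genes with at least 2 probes, with the log2 difference (dexamethasone minus saline, knockout, 4 h) at its brightest probe on the x axis and at its dimmest probe on the y axis; the dashed line marks equal values. The 293 genes called with at least a 2-fold change run along the line, while the 2346 genes called with smaller changes spread over both signs of the dimmest probe.

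**Figure D2:**
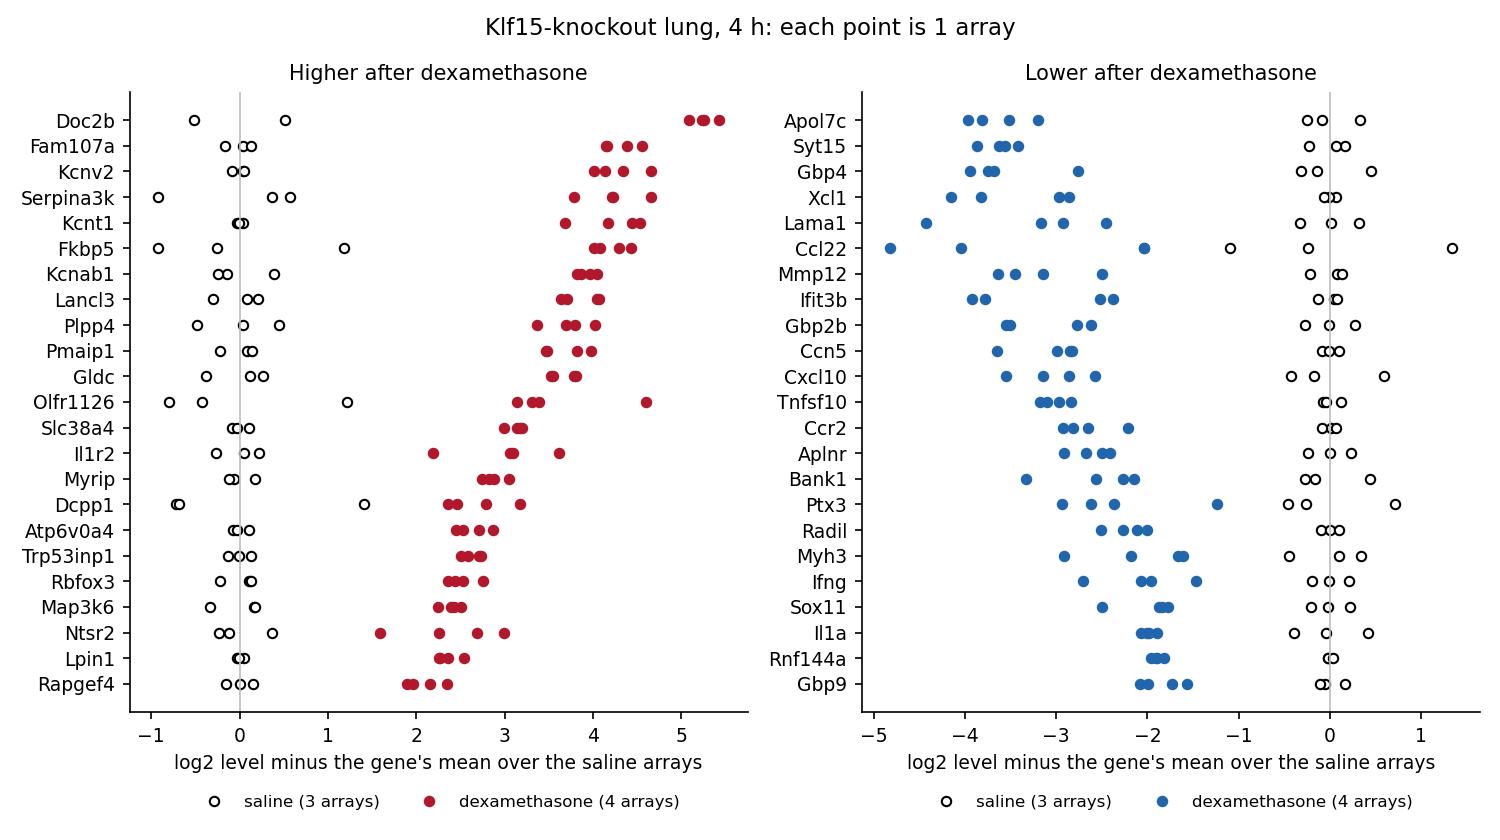
Level of each array minus the mean of the saline arrays of the same gene (log2), for the genes with the largest changes at their brightest probe and at all of their probes; open circles are the 3 saline arrays and filled circles the 4 dexamethasone arrays, fewer where a spot was left out. In all genes drawn the groups are apart, and Ccl22, Dcpp1, Fkbp5 and Olfr1126 have the widest spread within a group.

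Classical glucocorticoid targets formed the group with the largest share of rises. Of 42 genes listed as glucocorticoid-induced, 39 were tested, 36 were called higher and none lower, with a median difference of 1.67 against 0.03 over all genes. Beside these counts and those of the lists below stand 23.9% higher and 18.5% lower over all genes. The glucocorticoid list holds genes known for this response in several tissues, so its direction is no independent evidence. The 3 members that did not pass at their brightest probe were Hif3a (0.96), Lcn2 (0.21) and Cebpb (0.11). Hif3a had a wide saline spread at that probe, from -3.66 to -1.94. Its second probe was called higher (2.88, adjusted p = 3.2e-10), and so were the mean of its probes (1.92) and its brightest probe without saline array 41 (1.43) or with the bright-to-dim ratio as a covariate (2.17). Fam107a, an actin-binding protein induced by stress hormones, stood at -0.93, -1.13 and -0.83 with saline and at 3.20, 3.59, 3.42 and 3.18 with dexamethasone. Its groups were far apart, with a difference of 4.31 (SE 0.15, adjusted p = 4.8e-15). Map3k6, a kinase at the top of stress MAP kinase cascades, rose from 1.53, 2.02 and 2.03 to 4.26, 4.37, 4.29 and 4.11, and its 2 probes differed by 2.40 and 2.48. Sgk1, a kinase that raises epithelial sodium uptake, rose from 3.38 to 3.67 with saline to 5.06 to 5.40 with dexamethasone (1.73, SE 0.13, adjusted p = 2.2e-10). The metal-binding metallothioneins Mt1 and Mt2 rose by 1.67 and 2.20. Their probes may share signal, since the transcripts are near copies of each other. Saline array 41 was the highest of its group for Mt2 (4.18 against 3.21 and 3.27), below the lowest dexamethasone value of 5.36.

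Among the 464 genes that rose at least 2-fold, 375 had a promoter in the RefSeq table, and 8 of these genes (2.13%) held the receptor's palindrome in the 250 bases before at least 1 start site. The palindrome was searched on both strands as the arms GNACA and TGTNC with any 3 bases between them, and it was found in 119 of the 27025 genes of the table (0.44%), in 46 of the 12242 tested genes with a promoter there (0.376%) and in 1 of 451 such genes that fell at least 2-fold (0.222%). A gene with several start sites counted once. The single-arm hexamer TGTTCT, which some palindromes contain, was found in 17.6% of the risen genes, 16.9% of the fallen genes and 14.4% of the tested genes. The 8 genes were Fam107a (4.31), Map3k6 (2.40), Sgk1 (1.73), Mt1 (1.67), Suox (1.54), Serpina3c (1.41), Tinagl1 (1.38) and Slc10a6 (1.31). The first 4 are printed because they belong to the glucocorticoid list, with the match in capitals, from the RefSeq table in build GRCm38.p6 and 5′ to 3′ along the gene. They are chr14:8309778-8310027 (minus strand) for Fam107a, chr4:133240568-133240817 (plus) for Map3k6, chr10:21993640-21993889 (plus) for Sgk1 and chr8:94178839-94179088 (plus) for Mt1.
Fam107a: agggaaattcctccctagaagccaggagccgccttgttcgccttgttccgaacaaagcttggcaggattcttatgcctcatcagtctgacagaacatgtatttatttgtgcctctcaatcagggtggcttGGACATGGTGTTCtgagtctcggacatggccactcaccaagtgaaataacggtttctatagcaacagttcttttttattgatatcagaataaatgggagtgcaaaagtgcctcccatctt
Map3k6: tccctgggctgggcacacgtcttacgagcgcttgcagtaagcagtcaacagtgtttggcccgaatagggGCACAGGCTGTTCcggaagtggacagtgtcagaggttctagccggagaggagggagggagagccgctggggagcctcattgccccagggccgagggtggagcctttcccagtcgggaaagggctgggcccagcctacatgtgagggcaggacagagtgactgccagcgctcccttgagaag
Sgk1: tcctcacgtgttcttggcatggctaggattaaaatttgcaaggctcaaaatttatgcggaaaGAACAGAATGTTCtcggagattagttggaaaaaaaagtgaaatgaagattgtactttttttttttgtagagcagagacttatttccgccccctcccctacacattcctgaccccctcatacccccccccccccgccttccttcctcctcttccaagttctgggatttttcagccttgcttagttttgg
Mt1: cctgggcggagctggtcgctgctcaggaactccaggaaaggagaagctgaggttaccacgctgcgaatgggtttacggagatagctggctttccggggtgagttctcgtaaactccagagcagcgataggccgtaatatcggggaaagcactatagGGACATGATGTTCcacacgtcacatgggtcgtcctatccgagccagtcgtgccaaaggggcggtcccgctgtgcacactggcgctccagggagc
The match begins 120 bases before the start site in Fam107a (in 1 of its 3 promoters in the table), 181 in Map3k6, 188 in Sgk1 (in 1 of 6) and 94 in Mt1. A match of letters shows no binding, and response elements farther away were not searched.

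The receptor's own feedback genes moved in both directions. Of 20 genes for the receptor, its chaperones and coregulators, 6 were higher and 6 lower, beside 23.9% and 18.5% of all genes. Fkbp5, a cochaperone that lowers the receptor's affinity for hormone, stood at -2.50, -1.83 and -0.40 with saline and at 2.50, 2.85, 2.72 and 2.44 with dexamethasone. All dexamethasone arrays were close together and above the saline arrays, which spread widely, and the difference was 4.21 (SE 0.48, adjusted p = 2.5e-07) with 4.17 to 4.39 over 3 probes. Fkbp4, a cochaperone that promotes hormone binding, fell from 1.86, 1.72 and 1.75 to 1.14, 1.02, 0.90 and 1.06 (-0.75, SE 0.10, adjusted p = 1.2e-06), with -0.92 at its other probe. Nr3c1, the receptor itself, was lower at all 4 of its probes, with -0.35 at the brightest (adjusted p = 0.0035) and down to -1.65 at the others; scaling by the array median gives -0.29 with an adjusted p of 0.10. Ncoa1, a coactivator of nuclear receptors, rose by 1.10 (SE 0.09, adjusted p = 2.5e-09) on its only probe. In this list 6 of 12 genes with several probes had probes of opposite sign.

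Brakes on NF-kB and MAP kinase signalling moved both ways. Of 28 tested, 10 were higher and 7 lower, beside 23.9% and 18.5% of all genes, with a median of 0.07 against 0.03 over all genes. Tsc22d3, the leucine zipper protein that binds NF-kB and AP-1, rose from 2.89, 3.61 and 3.72 to 5.04, 5.18 and 5.08. Array 58 has no value for it because its spot was an outlier, and its 2 probes rose by 1.69 and 1.93. Nfkbia, the inhibitor that keeps NF-kB in the cytoplasm, rose by 1.37 (SE 0.13, adjusted p = 3.2e-08), and Errfi1, an inhibitor of the EGF receptor, by 1.79 (SE 0.16, adjusted p = 6.6e-09), also without array 58. The decoy receptor Il1r2, which takes up interleukin-1 without signalling, rose from -3.83, -3.34 and -3.51 to -1.37, -0.50, 0.05 and -0.46. Its groups did not overlap, and both probes rose, by 2.88 and 2.99, but it is also a neutrophil marker. The neutrophil list had 2 of 19 members higher, Il1r2 and Mmp8, with a mean level of -2.39 to -0.65 with saline and -1.23 to -0.10 with dexamethasone, and S100a8 (0.79) and S100a9 (0.95) did not pass. Socs1, a brake on cytokine receptors, fell by 1.45 (SE 0.17, adjusted p = 2.6e-07), and Dusp4, a MAP kinase phosphatase, fell by 0.81 (SE 0.13, adjusted p = 2.4e-05). The part of neutrophils in the rise of Il1r2 was not tested.

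Early response genes included 4 rises of at least 2-fold. Gadd45g, a growth arrest gene, stood at 2.74, 2.72 and 2.99 with saline and at 5.86, 5.78, 5.76 and 5.66 with dexamethasone, a difference of 2.95 (SE 0.14, adjusted p = 2.3e-13). Maff, a small bZIP factor, rose by 2.12 (SE 0.08, adjusted p = 1.5e-14). The immediate-early list as a whole had 10 of 23 higher and 2 lower. In the Kruppel-like factor family 6 of 16 were higher and 2 lower, and Klf9, a known receptor target, rose by 1.01 and 1.08 at its 2 probes, from 1.68 to 2.07 with saline to 2.74 to 3.16 with dexamethasone. Klf4 rose by 0.90 (SE 0.14, adjusted p = 1.4e-05). The clock list had 8 of 19 higher and 6 lower. Per1, a clock repressor with a receptor site in its promoter, rose from 1.33, 1.83 and 2.17 to 2.72, 2.89, 2.66 and 2.73 (0.97, SE 0.19, adjusted p = 0.00025), a call lost with the bright-to-dim ratio as a covariate (0.69, adjusted p = 0.078), while Timeless, a replication and clock protein, was lower at its 2 probes (-1.42 and -0.63).

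Genes of cell death and growth arrest were among the largest rises. Pmaip1, the BH3-only protein Noxa, rose from -0.05, -0.36 and 0.01 to 3.34, 3.69, 3.84 and 3.35 (3.69, SE 0.18, adjusted p = 2.1e-13). Cdkn1a, the cell cycle inhibitor p21, rose from 1.36, 0.61 and 0.78 to 4.06, 4.04, 3.78 and 3.79 (3.0, SE 0.19, adjusted p = 1.4e-11). Neither gene had overlapping groups, and each had 1 probe. Bcl2l1, which encodes the survival protein Bcl-xL, rose as well, at all 3 probes by 1.63 to 2.06. Trp53inp1, a stress protein induced by p53, rose by 2.63 and 3.04 at its 2 probes, the death receptor Fas by 1.79 (SE 0.10, adjusted p = 2.9e-12) and the mitochondrial protein Bnip3 by 1.74 (SE 0.08, adjusted p = 1.2e-13). Of 28 apoptosis regulators tested, 11 were higher and 5 lower, with a median of 0.04, so genes that promote and genes that oppose death rose together. Of 31 cell cycle genes 4 were higher and 5 lower.

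Enzymes of amino acid use moved in both directions, and those named here are mostly rises. Gldc, the decarboxylase of the glycine cleavage system, stood at -6.04, -5.90 and -6.54 with saline and at -2.64, -2.35, -2.61 and -2.37 with dexamethasone. Tat, the first enzyme of tyrosine breakdown, stood at -2.48, -3.12 and -2.87 with saline and at 0.33, 0.13, -0.24 and -0.36 with dexamethasone. In both the groups were apart, with differences of 3.67 (SE 0.22, adjusted p = 1.1e-11) and 2.79 (SE 0.27, adjusted p = 1.8e-08). Glul, which makes glutamine, rose by 2.30 and 2.01 at its 2 probes, and Gnmt, which consumes S-adenosylmethionine, by 2.01 (SE 0.11, adjusted p = 2.3e-12). Aass, the first enzyme of lysine breakdown, rose by 0.86 (SE 0.10, adjusted p = 3.3e-07). Prodh, the first enzyme of proline breakdown, was not called: it stood at 1.42, 1.36 and 1.38 with saline and at 1.82, 1.65, 1.25 and 1.34 with dexamethasone, with overlap (0.13, SE 0.14, adjusted p = 0.51). In the list of other amino acid breakdown 14 of 41 were higher and 15 lower, 8 and 2 of them at least 2-fold, with a median of -0.06. Over all genes 23.9% were higher and 18.5% lower. In branched-chain breakdown 6 of 24 were higher and 3 lower. There, Acadsb, an acyl-CoA dehydrogenase of isoleucine breakdown, rose by 1.07 (SE 0.09, adjusted p = 4.5e-09), and Ivd, that of leucine, by 0.75 at its brighter probe, with 0.11 and no call at the other. Among 26 amino acid transporters 11 were higher and 6 lower. Slc38a4, a carrier of neutral amino acids, rose from -1.81, -1.75 and -1.62 to 1.47, 1.27, 1.41 and 1.45, by 3.13 at 1 probe and 2.07 at the other, and Slc43a2, a carrier of large neutral amino acids, by 1.52 (SE 0.15, adjusted p = 2.2e-08).

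Rises were found among genes for fat use and falls among genes for lipid synthesis. Of 30 tested genes of fatty acid use 16 were higher and 1 lower, with a median of 0.42. Pdk4, the kinase that shuts pyruvate out of the citric acid cycle, rose from -1.04, -1.56 and -1.11 to 1.77, 2.07, 2.06 and 1.94 (3.20, SE 0.22, adjusted p = 8.2e-11). Lpin1, a phosphatidate phosphatase and coactivator, rose by 2.07 to 2.44 over 3 probes. The lipase gene Lpl rose by 1.98 and 1.18 at its 2 probes, and so did its inhibitor Angptl4, by 2.04 (SE 0.14, adjusted p = 6.3e-11). Of 32 genes of lipid synthesis, of sterols and of fatty acids, 13 were lower and 4 higher, with a median of -0.18. Of 17 with several probes 5 had probes of opposite sign. Cyp51 and Lss, consecutive enzymes of the sterol pathway, were lower at every probe, with -1.20 to -0.67 over 3 probes and -0.81 and -0.60 at 2. Insig2, which holds back the sterol sensor, was higher at both probes, by 0.71 and 0.36. Among brakes of the insulin and mTOR pathway 14 of 29 were higher and 2 lower, led by Ddit4, which rose from 3.05, 3.1 and 3.54 to 5.49, 6.05, 5.82 and 5.78 (2.55, SE 0.27, adjusted p = 6.1e-08), and by Sesn1, with 1.16 to 2.23 over 3 probes. Foxo1, a transcription factor of fasting, rose by 0.68 and 0.61 at its 2 probes. The median of the mTOR list was 0.19 and was 0 when each gene was taken at its dimmest probe.

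Ion transport genes included several of the largest rises. Clca3a1 and Clca3a2, neighbouring genes for secreted regulators of chloride conductance, rose by 3.56 (SE 0.22, adjusted p = 1.2e-11) and 3.42 (SE 0.18, adjusted p = 5.7e-13), and their similar sequences may share signal. Atp1b1, a subunit of the sodium pump that clears alveolar fluid, stood at 3.41, 3.40 and 3.59 with saline and at 4.86, 4.72, 4.76 and 4.73 with dexamethasone, a rise of 1.30 (SE 0.09, adjusted p = 2e-10). Lrrc8a, a subunit of the volume-regulated anion channel, rose by 1.47 (SE 0.09, adjusted p = 7.9e-12). The list of epithelial transport had 8 of 24 higher and 5 lower. Of 39 potassium channel genes 8 were higher and 8 lower. For both lists the shares over all genes were 23.9% higher and 18.5% lower. Kcnv2, a silent channel subunit, was not well above background on any saline array and was on all 4 dexamethasone arrays, where it was at least 5.59-fold higher. Here and below, "at least" compares the mean of the brighter group with that of the dimmer group. On each array of the dimmer group, a value under the array's lowest signal well above background was first raised to that signal. Kcnt1, a sodium-activated channel, rose by 4.21 (SE 0.39, adjusted p = 1e-08) at its brightest probe, and its 3 probes ranged from 1.08 to 4.21. Kcnab1, a beta subunit, rose by 3.93 at its brighter probe. Its dimmer probe differed by -0.76 (SE 1.07) and was not called, so the probes differed in sign. The mean level of the dimmer probe over all arrays was -7.53. That is near the lowest signal well above background, at -7.85 to -7.08 on the dexamethasone arrays. Kcnk3, an acid-sensitive channel, was lower at both probes (-1.08 and -1.37), and Kcna3, a channel of lymphocytes, fell by 1.97 (SE 0.21, adjusted p = 1.3e-07).

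Other genes with the largest rises had varied roles. Doc2b, which senses calcium in vesicle release, was not well above background on the saline arrays that measured it and stood at -2.56, -2.76, -2.74 and -2.91 with dexamethasone, at least 27.7-fold higher. The serine protease inhibitor Serpina3k, one of several near copies, was at least 13.2-fold higher, and the lipid phosphatase Plpp4 at least 10.3-fold. Lancl3 rose by 3.87 (SE 0.22, adjusted p = 3.9e-12). The odorant receptor Olfr1126 was dim, not well above background on any saline array, and at least 5.1-fold higher with dexamethasone, with array 60 at -4.19 and the others at -5.66 to -5.40. At every probe of the gene, rises were found for Myrip (2.63 and 2.87), a linker of secretory granules to myosin, Rbfox3 (2.52 and 3.26), a splicing factor, Atp6v0a4 (2.36 and 2.64), a proton pump subunit, and Rapgef4 (2.09 and 2.42), a sensor of cyclic AMP. Ntsr2, a neurotensin receptor, rose by 2.38 and 2.08, with dexamethasone values spread from -3.09 to -1.68 above saline values of -4.91 to -4.31. Dcpp1 was dim and well above background on only 1 of 3 saline arrays. The acute-phase list had 12 of 22 higher and none lower. Orm1 and Orm2, near copies of an acute-phase lipid carrier, rose by 2.17 and 2.64, and Lrg1, a secreted glycoprotein, by 0.81 (SE 0.22, adjusted p = 0.0041), a call lost with the bright-to-dim covariate (0.33).

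The lists of B cell and cytotoxic cell genes held large shares of falls. Of 20 genes of natural killer and cytotoxic cells 18 were lower and none higher, with a median of -1.95. Of 17 B cell genes 14 were lower and none higher (median -1.73), and of 25 T cell genes 16 were lower and 1 higher (median -0.69). The mean level of the B cell list was -1.92 to -1.26 with saline and -3.56 to -2.88 with dexamethasone, and that of the cytotoxic list -2.30 to -1.94 against -3.99 to -3.42, both without overlap. In whole lung, fewer cells of a type and less RNA per cell cannot be told apart. Cd22, an inhibitory receptor of B cells, was lower at both probes (-1.59 and -1.35). Bank1, a B cell adaptor, stood at -2.32, -1.71 and -2.43 with saline and at -4.30, -5.49, -4.42 and -4.72 with dexamethasone, with differences of -2.58 and -2.59 at its 2 probes. Fcer2a and Ms4a1, surface proteins of mature B cells, were lower (-2.40 and -2.35), and Cd79b, part of the antigen receptor, fell by 1.24. In T cells the receptor chain Cd247 was lower at both probes (-1.73 and -1.58), the kinase Lck fell by 1.74 and the homing receptor Ccr7 fell by 1.47. Tbx21, the factor of type 1 immunity, fell by 1.95 (SE 0.28, adjusted p = 6.4e-06), Klrk1, an activating receptor, fell by 2.06 (SE 0.30, adjusted p = 7e-06), and Prf1, perforin, fell by 1.98 (SE 0.32, adjusted p = 3.2e-05). For each of these genes the groups did not overlap.

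Some genes of red cells were called higher. Of 12 erythroid and platelet genes 6 were higher and none lower, and the mean level of the list was -0.67 to -0.23 with saline and 0.11 to 0.68 with dexamethasone. The globin Hba-a1 stood at 7.20 to 7.23 and at 7.61 to 8.09, a call lost with quantile normalization (0.10, adjusted p = 0.17), in the deposited table (0.04, 0.52) and with the bright-to-dim covariate (0.51, 0.093), and Alas2, the heme synthesis enzyme of red cells, at 3.02 to 3.61 and 3.60 to 4.47, with overlap. Array 59 was the highest for Alas2 (4.47) and for the red cell anion exchanger Slc4a1 (1.44 against -0.34 to -0.26 on the other dexamethasone arrays), and both calls were lost without it (adjusted p = 0.10 and 0.18). They were also lost without saline array 43 (0.13 and 0.056) or 44 (0.070 and 0.14), and that of Slc4a1 without saline array 41 (0.11). The heart list had 1 of 15 lower, Actc1, with a mean level of -0.69 to 1.04 against -0.91 to 0.37. Its call was lost without saline array 41 (adjusted p = 0.098). The part of blood content or of adjoining tissue in the falls of leukocyte genes was not tested.

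Falls were also found among myeloid markers and chemokines. Of 26 monocyte, interstitial macrophage and dendritic cell genes 12 were lower and 4 higher, whereas of 14 alveolar macrophage genes 4 were lower and 5 higher. Cx3cr1, the fractalkine receptor of patrolling monocytes, stood at -0.79, -1.33 and -1.37 with saline and at -4.13, -4.0, -4.14 and -4.46 with dexamethasone, with differences of -3.02 and -1.65 at its 2 probes. Ccr2, the receptor of inflammatory monocytes, was lower at its 2 probes (-2.65 and -2.50). Of 42 chemokines and receptors 23 were lower and 2 higher, with a median of -0.91. Cxcl10, an interferon-induced chemokine, fell from -1.03, -2.04 and -1.79 to -4.76, -4.48, -4.19 and -5.17 (-3.03, SE 0.41, adjusted p = 2.8e-06), and Ccl4 fell by 2.76 (SE 0.31, adjusted p = 1.5e-07). Xcl1, a chemokine of cytotoxic cells, fell by 3.45 with 2 of 4 dexamethasone arrays above background. Ccl22, a chemokine of dendritic cells, was called lower, but only 1 of 4 dexamethasone arrays was well above background, so no size is given, and its call was lost with the bright-to-dim covariate (adjusted p = 0.12). Mmp12, the macrophage elastase, fell by 3.19 with 2 of 4 dexamethasone arrays above background.

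Among cytokines and their receptors 21 of 36 were lower and 3 higher, with a median of -0.66. Tnfsf10, the death ligand TRAIL, stood at 0.01, -0.18 and -0.15 with saline and at -2.94, -3.21, -3.29 and -3.08 with dexamethasone. The groups were apart, and it fell by 3.02 (SE 0.18, adjusted p = 1.1e-11). Ifng was lower at both probes, with -2.05 and -2.63, and so was Il1a, with -1.99 and -1.92. With the bright-to-dim ratio as a covariate the call of Il1a was lost (-0.83, adjusted p = 0.42). Tnf, chosen after its values were seen, fell by 1.82 (SE 0.29, adjusted p = 1.9e-05), and Il6, likewise chosen, was at least 2.07-fold lower, since no dexamethasone array was well above background. Il10ra, a receptor chain of the anti-inflammatory interleukin-10, fell by 1.35 (SE 0.14, adjusted p = 4.1e-08). Ptx3, a soluble pattern receptor induced by cytokines, was lower at its 2 probes (-2.29 and -2.39), with 3 of 4 dexamethasone arrays above background, and its call was lost with that covariate (-1.27, adjusted p = 0.15), as was that of Il6 (0.070).

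Most interferon-stimulated genes fell, with 32 of 38 lower, none higher and a median of -0.98. Ifit3 stood at 2.95, 2.62 and 2.73 with saline and at 0.78, 0.73, 0.97 and 1.0 with dexamethasone (-1.89, SE 0.11, adjusted p = 7.9e-12), and the near copy Ifit3b fell by 3.15. Gbp4, a guanylate-binding protein, fell by 3.54 (SE 0.68, adjusted p = 0.00018), Gbp9 was lower at both probes (-1.84 and -2.30), and Gbp2b was at least 3-fold lower. These proteins have similar sequences, and their probes may share signal. Irf7, the factor that amplifies interferon, fell by 1.31 (SE 0.14, adjusted p = 1.1e-07). In antigen presentation 6 of 12 MHC class II genes were lower and none higher. Ciita, their master regulator, fell from 1.05, 0.29 and 0.89 to -1.85, -1.83, -2.12 and -2.34 (-2.77, SE 0.37, adjusted p = 2.3e-06). The class II chain H2-Ab1 fell by 0.52 (adjusted p = 0.035), a call lost without saline array 41 (0.11) or 44 (0.078) and without dexamethasone array 59 (0.056) or 60 (0.11). Apol7c, an apolipoprotein L gene, and Syt15 had the largest falls of all genes tested. Apol7c went from -0.74, -1.32 and -1.16 to -5.04, -4.89, -4.27 and -4.59, with differences of -3.62 and -4.35 at its 2 probes.

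Falls were found among endothelial, adhesion and developmental genes as well. Of 28 endothelial genes 16 were lower and 6 higher (median -0.46). Aplnr, the apelin receptor, stood at 1.16, 1.39 and 0.92 with saline and at -1.25, -1.52, -1.76 and -1.34 with dexamethasone, and both probes were lower (-2.62 and -2.10). Tek, the angiopoietin receptor, fell by 1.42 (SE 0.11, adjusted p = 7.9e-10), Kdr, the main VEGF receptor, fell by 1.38 (SE 0.11, adjusted p = 1.5e-09) and the Notch ligand Dll4 fell by 1.63 (SE 0.16, adjusted p = 2.5e-08). Lyve1, a hyaluronan receptor of lymphatic vessels and some macrophages, went up instead, by 1.74 and 1.45 at its 2 probes. In leukocyte adhesion 10 of 20 were lower and none higher, led by Icam1 (-1.44, SE 0.11, adjusted p = 2.3e-10) and Pecam1 (-0.93, SE 0.10, adjusted p = 4.8e-08). Of 49 growth factor, Wnt, Notch and hedgehog genes 28 were lower and 7 higher (median -0.67). Wnt7a stood at -0.95, -0.99 and -0.86 with saline and at -3.46, -3.46, -4.29 and -4.39 with dexamethasone, so that it fell by 2.96 (SE 0.27, adjusted p = 6.2e-09). Wnt3a fell by 2.23 and Wnt2 fell by 1.47, while the receptor Fzd4 rose by 1.55 (SE 0.12, adjusted p = 6.5e-10).

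Structural and matrix genes gave some of the remaining large falls. Ccn5, a matricellular inhibitor of smooth muscle growth, stood at 1.93, 1.74 and 1.82 with saline and at -1.16, -1.0, -1.02 and -1.82 with dexamethasone (-3.08, SE 0.25, adjusted p = 1e-09). Lama1, a laminin chain, was at least 6.2-fold lower, with no dexamethasone array well above background. Falls at every probe were measured for Radil (-2.22 and -2.80), an effector of Rap that acts in cell adhesion, Rnf144a (-1.89 and -2.45), a ubiquitin ligase, and Sox11 (-2.17 to -2.0 over 3 probes), a developmental factor. Syt15 was lower at both probes (-3.62 and -1.60), with 3 of 4 dexamethasone arrays above background. Myh3, embryonic myosin, was lower at both probes (-2.09 and -1.80) with 2 of 4 dexamethasone arrays above background, a call lost without saline array 44 (adjusted p = 0.056) or with the bright-to-dim covariate (0.44). Lung epithelial lists showed no common direction: 5 of 16 type 2 genes were higher and 6 lower, 8 of 12 type 1 genes were higher and 2 lower, and the type 1 median of 0.40 was -0.01 at the dimmest probes. Among type 2 genes the highest difference was 0.81. Sftpc was called higher, a call lost in the deposited table (0.04, adjusted p = 0.49) and with the bright-to-dim covariate (0.23, 0.44). Of the falls in this list, Etv5, a factor downstream of FGF signalling, was lower at both probes (-1.27 and -1.09). Il33, an alarmin, fell by 1.23. The surfactant lipid transporter Abca3 fell by 0.81 at the brightest of 3 probes, the others (-0.61 and -0.18) not being called.

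**Figure D3:**
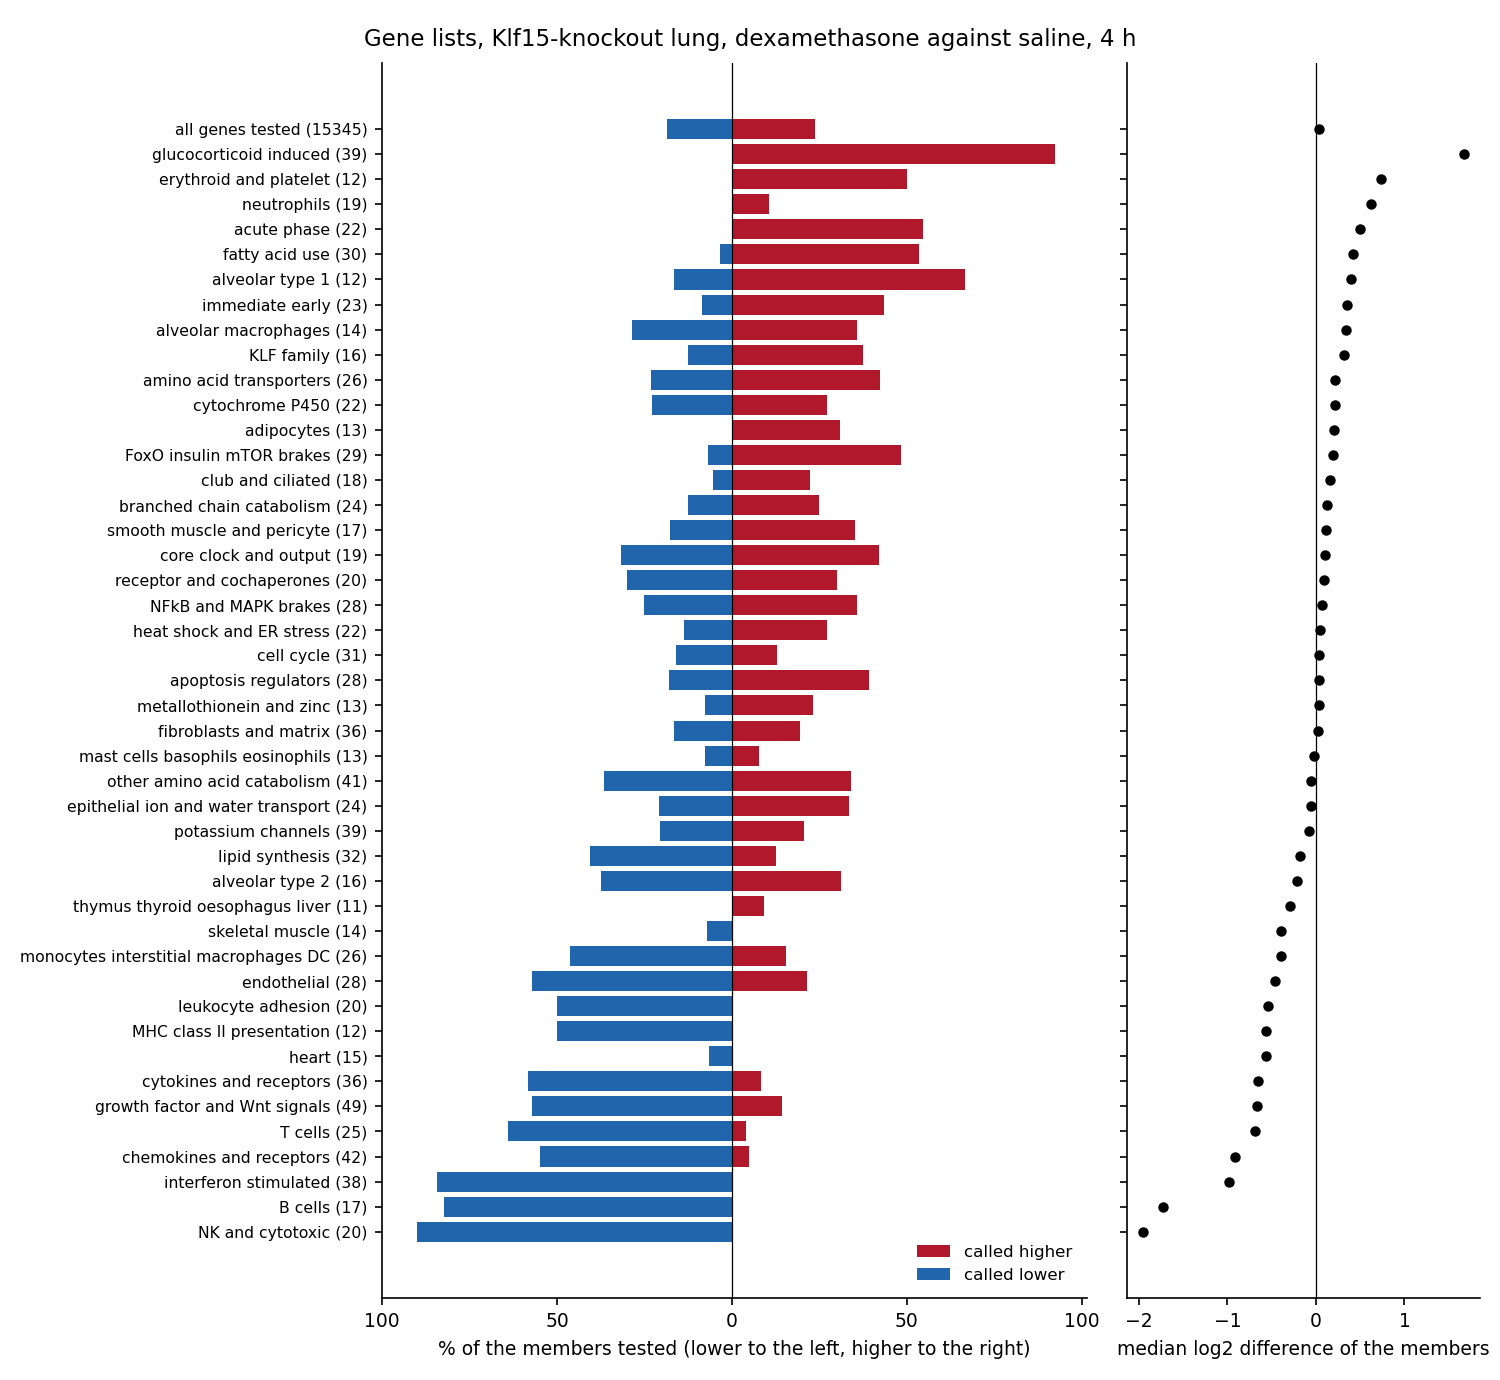
For each gene list, with the number of members tested in brackets, the left panel shows the percent of tested members called higher (right, red) and lower (left, blue) and the right panel the median log2 difference (dexamethasone minus saline); the top line gives all genes. The glucocorticoid-induced list lies at the top with 36 of 39 higher, and the B cell, interferon-stimulated and cytotoxic lists lie at the bottom with 14 of 17, 32 of 38 and 18 of 20 lower.

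The response was then set against that of wild-type lung at 4 h, which shares no array with it. In wild type 5645 genes were called (36.8%), of which 2328 were higher (15.2%) and 3317 lower (21.6%), and 458 and 608 of these changed at least 2-fold (2.98% and 3.96%). Of the 464 genes that rose at least 2-fold in the knockout 407 (87.7%) were called higher in wild type, and of the 597 that fell 515 (86.3%) were called lower. The medians of these genes were 1.43 in the knockout and 1.19 in wild type for rises and -1.35 and -1.29 for falls, and the genes were chosen by their knockout values. The test of the difference between the genotypes called 1654 genes with a higher value in the knockout (10.8%) and 547 with a lower value (3.56%), but 11 and 41 of at least 2-fold (0.0717% and 0.267%). These counts varied widely with the scaling and the probe. The log2 bright-to-dim ratio was -0.01 to 0.17 on the wild-type saline arrays and 0.01 to 0.13 on the wild-type dexamethasone arrays, so the knockout saline arrays stood apart in it, and its part in the genotype difference was not tested. Scaling by the array median called 1344, of which 92.3% were higher against 75.1% of the 2201, and with the bright-to-dim ratio as a covariate 3 were called. Without any of knockout saline array 43, dexamethasone arrays 57 or 58, wild-type saline array 36 or wild-type dexamethasone array 52 they were 1029, 1256, 1113, 1098 and 1333. In genes with several probes, every probe was called higher in 32 (0.591%) and lower in 16 (0.295%).

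For 5 genes below every probe was called for the difference between genotypes, and 4 of them, Lfng, Stxbp4, Pogk and Epb41l5, were chosen after their values were seen. All 5 had a lower value in the knockout, which is the less frequent direction: every probe was called lower in 16 genes and higher in 32. Rbl2, the retinoblastoma-like repressor p130, stood at 0.08, 0.22 and 0.03 with saline and at -0.39, -0.40, -0.28 and -0.19 with dexamethasone in the knockout. It fell by 0.43 in the knockout and higher by 0.53 in wild type, and the effects differed by -0.95 and -0.81 at its 2 probes (SE 0.15 and adjusted p = 0.0023 at the brighter). The knockout minus wild-type difference at the brightest probe was -0.75 for Lfng, a modifier of Notch, -1.0 for Stxbp4, a syntaxin-binding protein, -0.69 for Pogk, a transposase-derived gene, and -0.63 for Epb41l5, a polarity protein. With the bright-to-dim ratio as a covariate all 5 calls were lost (adjusted p = 0.443 for Stxbp4 and 0.228 for each other gene). Median scaling also lost those of Lfng (0.0503) and Epb41l5 (0.196). Other calls rested on the brighter of 2 probes. Klf6 differed by 0.35 in the knockout and -0.28 in wild type, a difference of 0.64 (SE 0.10, adjusted p = 0.0022), with 0.36 and no call at its other probe. Its knockout change was not called in the deposited table (0.08), with normexp (0.06) or with quantile normalization (0.14), and its genotype difference was not called in the first 2 of these (adjusted p = 0.063 and 0.068). Slc38a4 rose more in the knockout (3.13 against 2.35, difference 0.77, adjusted p = 0.013) and Rapgef4 less (2.09 against 2.95, difference -0.86, adjusted p = 0.013), with 0.43 and -0.43 at the other probes. Fas, on 1 probe, rose by 1.79 in the knockout and 1.07 in wild type (difference 0.72, SE 0.14, adjusted p = 0.0049), and Fah, the last enzyme of tyrosine breakdown, fell by 0.46 against a rise of 0.29 (difference -0.75, adjusted p = 0.0014). The call for Peli1, a ubiquitin ligase, rested on 1 of its 2 probes, with a difference of 0.67 at the brighter and -0.03 at the dimmer. For Nr3c1 the probes ranged from -1.0 to 0.45, on both sides of 0. No difference was called for Klf15 (1.91 against 1.95, adjusted p = 0.95), Fkbp5 (4.21 against 3.08, SE of the difference 0.65, adjusted p = 0.26) or Fam107a (4.31 against 4.17, adjusted p = 0.68), and a p above the threshold does not show equal effects.

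**Figure D4:**
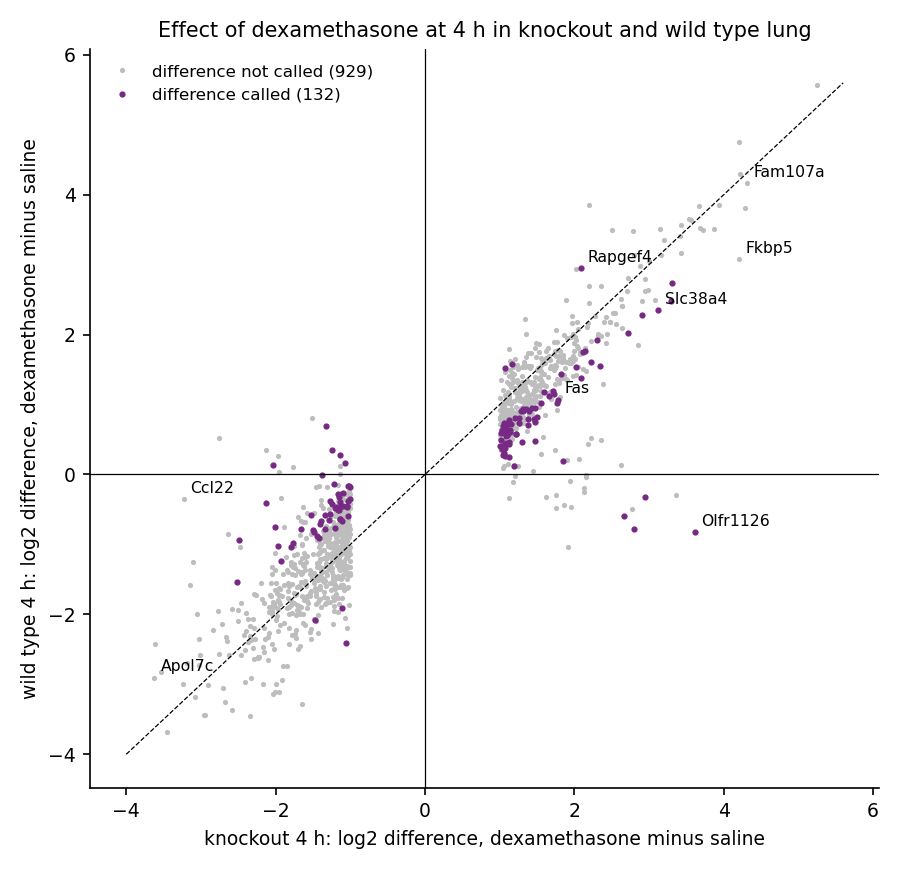
Log2 difference (dexamethasone minus saline, 4 h) in knockout lung on the x axis and in wild-type lung on the y axis, for the 1061 genes called with at least a 2-fold change in the knockout, which leaves out the middle of the x axis; the dashed line marks equal effects. The 132 genes whose effects were called different between genotypes (purple) lie mostly between the line and 0 in wild type, and a few dim genes such as Olfr1126 lie near or below 0 there.

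The response was also set against that of knockout lung at 8 h, which has saline arrays of its own. Of the 464 genes that rose at least 2-fold at 4 h, 400 (86.2%) were called higher at 8 h, with medians of 1.43 and 0.98, and of the 597 that fell 490 (82.1%) were called lower, with medians of -1.35 and -1.08. These genes were chosen by their 4 h values. At 8 h 3868 genes were higher (25.2%) and 2718 lower (17.7%), 434 and 509 of them by at least 2-fold (2.83% and 3.32%). The difference between the times itself was called in 466 genes, 207 higher at 8 h (1.35%) and 259 lower (1.69%), and in 284 without saline array 41. It was called in 115 of the 464 risen genes, 113 of them toward 0, and in 82 of the 597 fallen genes, 75 toward 0, a direction that the choice of large changes at 4 h favours. Every probe was called in 12 genes higher (0.222%) and 28 lower (0.517%) of those with several probes.

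Several classical receptor targets had a smaller rise at 8 h. Fkbp5 rose by 4.21 at 4 h and 1.31 at 8 h, a difference of -2.90 (SE 0.65, adjusted p = 0.013), whose call was lost without saline array 41 (-2.43, adjusted p = 0.068). Fam107a rose by 4.31 and 2.50 (difference -1.81, SE 0.21, adjusted p = 2.9e-05), Map3k6 by 2.40 and 1.29, Tsc22d3 by 1.69 and 0.57 and Gldc by 3.67 and 2.03. Mcf2l, a guanine nucleotide exchange factor, stood at 1.61, 1.82 and 1.72 with saline and at 3.48, 3.50, 3.44 and 3.60 with dexamethasone at 4 h. Its rise of 1.79 (1.43 to 1.84 over 3 probes) was 0.60 at 8 h (difference -1.19, SE 0.12, adjusted p = 1.1e-05). Fam117b rose at all 4 probes by 1.27 to 2.02 at 4 h, and by 0.85 at the brightest at 8 h (difference -1.16, adjusted p = 2.9e-05). Fas (1.79 and 0.65), Pmaip1 (3.69 and 2.41) and Bcl2l1 (1.96 and 0.93) had smaller rises at 8 h as well. Falls were smaller at 8 h in the Wnt receptor Fzd2, which went from 1.61, 1.45 and 1.60 to -0.15, -0.24, -0.28 and -0.43 at 4 h. Its change was -1.83 at 4 h and -0.46 at 8 h (difference 1.37, SE 0.16, adjusted p = 3.2e-05), and both of its probes were called. Wnt3a (-2.23 and -1.06) and Wnt7a (-2.96 and -1.45) followed the same order, though the call for Wnt7a was lost without saline array 41 or 44 (adjusted p = 0.052 and 0.053). Heyl, a Notch target chosen after its values were seen, and Rab11fip1, a vesicle trafficking protein, were lower at 4 h (-0.67 and -0.53) and higher at 8 h (0.54 and 0.42). Other large changes had no called difference at the brightest probe, among them Aplnr (-2.62 and -2.67), Ccn5 (-3.08 and -3.16), Kcnt1 (4.21 and 4.67), Mt2 (2.20 and 2.18), Tat (2.79 and 2.53) and Lpl (1.98 and 1.92). At the second probe of Kcnt1 the difference was called (1.80, adjusted p = 0.022).

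**Figure D5:**
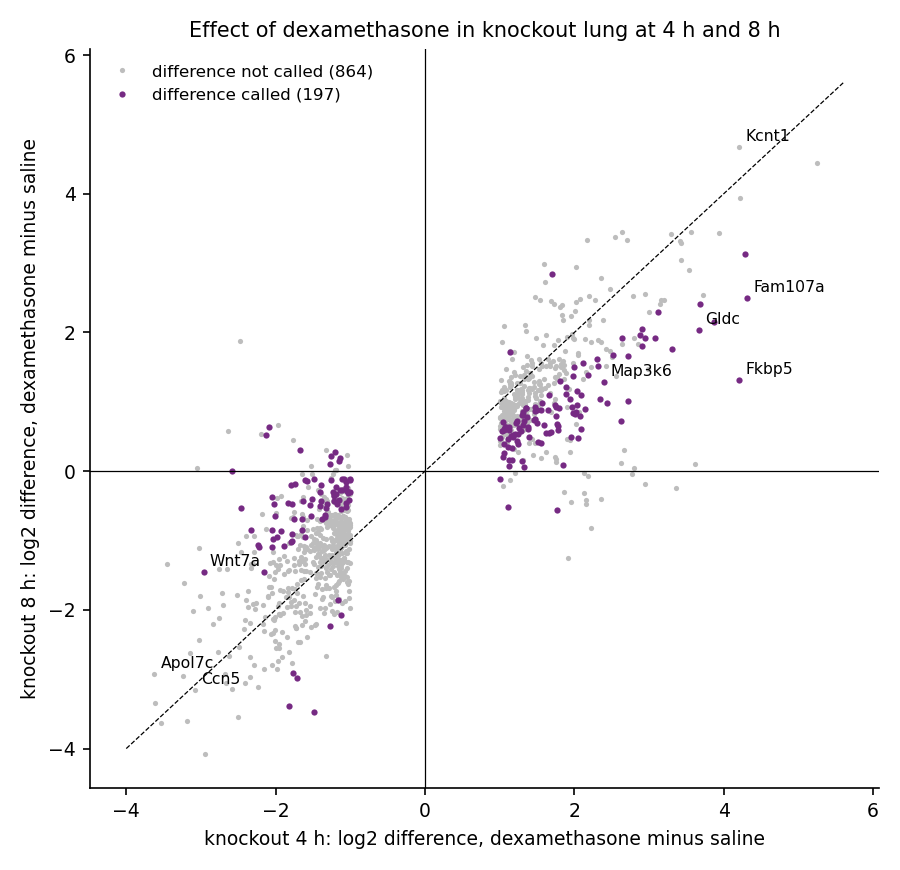
Log2 difference (dexamethasone minus saline) in knockout lung at 4 h on the x axis and at 8 h on the y axis, for the 1061 genes called with at least a 2-fold change at 4 h; the dashed line marks equal effects. The 197 genes whose effects were called different between the times (purple) lie mostly nearer 0 at 8 h, as Fkbp5, Fam107a and Map3k6 do.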

How the data were processed

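RNA of whole lung was labelled with Cy3 and hybridised to 1-colour Agilent 4x44K arrays, 1 sample per array, per the labels' protocols. The values used are the background-subtracted spot intensity (gProcessedSignal) in the deposited scanner files, made by Agilent's Feature Extraction (version 10.7.3.1, per the file headers, and 10.6, per the submitters' processing notes). The authors' deposited series table holds log2 values whose order follows the spots' median signal (Spearman 0.99999 to 1), and it served only as an alternative.

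Each array's log2 intensity was reduced by its 75th percentile, after control spots and outlier spots were left out. Of 41174 probes 24844 matched 1 gene of the RefSeq table, 16330 none and 0 several, and 33923 passed the scanner software's test against background on 3 or more arrays of some group. The brightest such probe stood for its gene (15345 genes, 432 with a missing value). limma 3.58.1 in R 4.3.3 (lmFit and eBayes) fitted 8 group means over 29 arrays, with Benjamini-Hochberg adjustment over all genes and a threshold of 0.05. The same model was fitted to every kept probe, which gives the calls per probe. With data simulated for this comparison on 15345 genes, of which 200 were changed, it recovered 56.7% of changes of 0.5 log2 units, 77.6% of 1 and 97% of 2. The simulation had no slide effect or bright-to-dim shift, and far fewer changed genes than the 6505 called here. Its shares may therefore differ from those in these data. The number of arrays limits the precision.

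The members and the 44 gene lists were chosen with earlier results of these data known. The genes named are the targets and breakdown enzymes set by name, the 12 largest rises and falls with groups that do not overlap, the 12 rises and falls with the largest smallest-probe change, up to 6 called members of each list with the lowest p, and the 10 and 8 lowest adjusted p for the differences by genotype and by time. Some genes that meet this rule are left unnamed, and genes outside it are marked where they were chosen after their values were seen or are named as not called; Ms4a1 and Sftpc are named as markers. Alternatives were other scalings, backgrounds, probe choices, filters, slide blocks, variance models and leaving out each array.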

Additional observations from a re-analysis of the deposited data

Results flagged for a closer look

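In 6 of the 147 named genes with 4 dexamethasone values, 1 array lay far from the others by Dixon's test, and chance gives about 5% of such groups. The levels were -5.12 for Sox11 on array 57, -2.09 for Lck on array 59, -2.83 for Prf1 on array 58, 2.63 for Actc1 on array 60, 1.44 for Slc4a1 on array 59 and 5.10 for Lyve1 on array 59. Array 59 stood out in 3 of the 6 genes.

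The dexamethasone effect at 4 h was called different between knockout and wild type by the interaction test in 28 named genes. Of these 28 calls 1 was kept under every alternative run. With the bright-to-dim ratio as a covariate 3 genes were called among all 15345 tested. Values are given as knockout minus wild type (log2, brightest probe). The value was above 0 for Nr3c1 (0.45), Glul (0.37), Sgk1 (0.58), Fas (0.72), Slc38a4 (0.77), Sesn1 (0.62) and Insig2 (0.37). It was also above 0 for Olfr1126 (4.44), Wnt2 (0.61), Klf6 (0.64), Peli1 (0.67), Fam117b (0.47), Maff (0.36) and Ncoa1 (0.53). The value of Olfr1126 is not a measured size, since no knockout saline array was well above background, and its call was lost under several alternatives, such as slide as a fixed block (adjusted p = 0.19). It was below 0 for Lss (-0.47), Rapgef4 (-0.86), Icam1 (-0.56), Pecam1 (-0.41), Tek (-0.51), Rbl2 (-0.95) and Fah (-0.75). Further values below 0 were those of Stxbp4 (-1.0), Lfng (-0.75), Pogk (-0.69), Epb41l5 (-0.63), Etv5 (-0.70), Abca3 (-0.42) and Kcna3 (-0.95). At the mean of its probes Nr3c1 was called with the opposite sign (-0.35, adjusted p = 0.022).

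The knockout effect differed between 8 h and 4 h in 36 named genes, given as 8 h minus 4 h. Values below 0, mostly smaller rises at 8 h, were found for Fkbp5 (-2.90), Tsc22d3 (-1.12), Per1 (-1.04), Aass (-0.52), Fam107a (-1.81), Glul (-0.68) and Map3k6 (-1.11). The same sign was found for Lrrc8a (-0.55), Errfi1 (-0.87), Pmaip1 (-1.28), Bcl2l1 (-1.03), Trp53inp1 (-0.71), Fas (-1.13) and Gldc (-1.64). So it was for Acadsb (-0.46), Slc38a4 (-0.83), Kcnv2 (-1.15), Lancl3 (-1.72), Myrip (-0.92), Rbfox3 (-0.84) and Rapgef4 (-1.48). Others below 0 were Fzd4 (-0.68), Peli1 (-0.46), Fam117b (-1.16), Mcf2l (-1.19), Gadd45g (-1.03) and Maff (-0.56). Values above 0 were found for Dusp4 (0.83), Radil (1.13), Ifit3 (0.81), Kdr (0.70), Wnt3a (1.17), Wnt7a (1.51) and Fzd2 (1.37). Others above 0 were Rab11fip1 (0.94) and Heyl (1.21).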

How the results depend on the processing

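No paired analysis was possible because the knockout groups share no replicate numbers. The number of genes called between dexamethasone and saline lay between 4410 (bright-to-dim ratio as a covariate) and 7638 (slide as a fixed block), against 6505. From only the groups compared it was 5356. The counts of genes changed at least 2-fold, 464 higher and 597 lower, became 291 and 331 with normexp and quantile normalization. With the covariate they were 1118 and 493. Of the 464 risen genes 429 (92.5%) kept their call with the covariate, and of the 597 fallen genes 413 (69.2%) did. Genes with all probes called numbered 980, and 533 with the covariate. Leaving out 1 array gave 5483 to 6443 calls, 432 to 491 and 543 to 631 of at least 2-fold, and 771 to 927 genes with all probes called. The share of rises among calls was 56.3%, and 43.1% at the dimmest probes, 46.5% with normexp, 48% in the deposited table, 50.1% with quantile normalization and 63.4% with median scaling.

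The genotype difference was called in 2201 genes. It was called in 3 with the covariate, 530 in the deposited table, 568 with normexp, 926 from only the groups compared, 1136 with quantile normalization, 1344 with median scaling, 1394 at the mean of a gene's probes and 1460 at the dimmest probes. Leaving out 1 array gave 1029 to 2926. Median scaling moved the median difference of all genes from 0.07 to 0.22. The share of higher values was 75.1%, 92.3% with median scaling, 71.6% with quantile normalization, 64% at the mean of probes, 62.2% from only the groups compared, 55.3% at the dimmest probes, 52.3% in the deposited table and 50.9% with normexp. The time difference, called in 466 genes, was called in 206 with median scaling, 301 from only the groups compared, 912 with slide as a random block and 1152 with array weights, and in 284 to 487 without 1 array.

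Of the 151 named genes 125 kept the direction and side of the threshold of their 4 h difference under every alternative run. For the genotype difference 1 of 28 did, and for the time difference 16 of 36. Signs turned at the dimmest probe for Kcnab1 (-0.76, a probe near background) and with quantile normalization for Sftpc (-0.09). For the genotype difference they turned at the dimmest probe for Nr3c1 (-1.0), Sesn1 (-0.27), Insig2 (-0.09), Peli1 (-0.03), Fam117b (-0.01) and Abca3 (0.36). At the mean of probes the difference was -0.35 for Nr3c1 and -0.03 for Fam117b. With the covariate the 4 h calls of Rbl2 (adjusted p = 0.17), Stxbp4 (0.70), Heyl (0.057), Actc1 (0.15), H2-Ab1 (0.082) and Sftpc (0.44) were lost too. The medians of the 44 lists moved by more than the spread between arrays in 175 of 924 recomputed values, and 5 lists never moved so far. They ranged from 1.3 to 1.73 for glucocorticoid-induced genes, -2.03 to -1.34 for B cells, -2.01 to -1.16 for cytotoxic cells, -1.1 to -0.82 for interferon-stimulated genes and -0.07 to 0.13 for the NF-kB brakes. The cause of these changes was not tested.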

Other observations

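Odorant receptor genes, which are hardly transcribed in lung, were tested as well. Of 438 tested 18 were called higher in knockout lung at 4 h and none lower, smaller shares than the 23.9% and 18.5% of all genes. At least 2-fold rises were found in 15, a share close to the 3.02% of all genes. The median difference was 0.15. In wild type at 4 h 9 were higher and 1 lower (median 0.44), and in knockout lung at 8 h 11 were higher and 3 lower (median 0.61). These genes have near copies that may share signal. A dim gene could enter the test through a group in which it was high. The balance of rises and falls is therefore no evidence about this family. Of 54 vomeronasal receptor genes 1, 3 and 1 were called higher in the same order, and none lower.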
